A study of Mus musculus with 12 samples.

Results

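The genes described here are 10 members of the TGF-beta pathway, of 48709 rows in the deposited table. They are the ligand gene Tgfb1, the receptor genes Tgfbr1, Tgfbr2 and Tgfbr3, the SMAD genes Smad2, Smad3, Smad4 and Smad7, and the repressor genes Ski and Skil, taken by their names in the table. RNA was sequenced from splenic CD8 T cells of OT-I mice, which carry a transgenic T cell receptor for an ovalbumin peptide. The Naive group was collected before activation, and the 24h, 48h and 72h groups that many hours after it. Activation used antibodies to CD3 and CD28 together with IL-2, and from 48 h the cells were kept off the plates, which covers the last day of the 72h group. Each of the 4 groups held 3 libraries, which the submitters call biological replicates, without giving the number, sex or age of the mice. All groups carry the OT-I transgene, and the labels name no added TGF-beta. The extraction notes speak of transferred OT-I cells, although the series design names no transfer.

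TGF-beta binds the type II receptor TGFBR2, which recruits and phosphorylates the type I receptor TGFBR1, and TGFBR3 (betaglycan) is a coreceptor that presents ligand. The receptor pair phosphorylates SMAD2 and SMAD3, which join SMAD4 and enter the nucleus. SMAD7 blocks the active receptor, and SKI and SKIL (SnoN) bind the SMAD complex and repress its target genes. In T cells the pathway is known for restraining activation and effector function and for inducing the integrin CD103, encoded by Itgae.

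Values are TPM, which scale reads by transcript length and library total, so that levels of different genes can be set side by side. A gene was called higher or lower in a comparison when limma on log2(TPM + 1) gave it an adjusted p under 0.05 and a change of at least 2-fold. Fold changes below are on the log2(TPM + 1) scale, first-named group minus second, except those given for voom or for another pseudocount. TPM is a share of a library, so fewer cells of a type and less RNA of a gene per cell cannot be told apart. All 10 members passed the filter on low values. Whole reads recovered from the TPM values came to between 14312854 and 19495722 per library, and to between 253 and 9555 for a member in a library.

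The libraries carried the markers of CD8 T cells, and the Naive libraries also carried those of other splenic cells. The 8 T cell markers summed to between 2992 and 4083 TPM in activated libraries and to between 6002 and 6337 TPM in Naive libraries. The 8 myeloid markers summed to at most 21.4 TPM in any activated library, against 2021, 1379 and 779.6 TPM in Naive replicates 1, 2 and 3. The 7 B cell markers summed to between 57.6 and 362 TPM after activation, against 2317 to 3399 TPM in Naive. The 6 erythroid and platelet markers lay at or under 12.5 TPM after activation, against 867 to 1201 TPM in Naive, and the 4 NK cell markers at or under 5.90 TPM, against 107 to 310.2 TPM. The 3 CD4 and regulatory T cell markers summed to between 1.49 and 6.32 TPM after activation and to between 22.4 and 31.2 TPM in Naive, and among 6 stromal and endothelial markers 1 passed the filter, Pecam1, which T cells can also express. Of these markers C1qa, Hba-a1 and Cdh5 were at 0 in all 48h libraries, and C1qa, C1qb, Lyz2, Csf1r, Adgre1, S100a9, Hba-a1, Hbb-bs and Cdh5 in all 72h libraries. Replicates were more alike in the activated groups (Pearson r across genes 0.993 to 0.995) than in Naive (0.975 to 0.987). The part of these other cells in the changes against Naive was not tested.

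**Figure D1:**
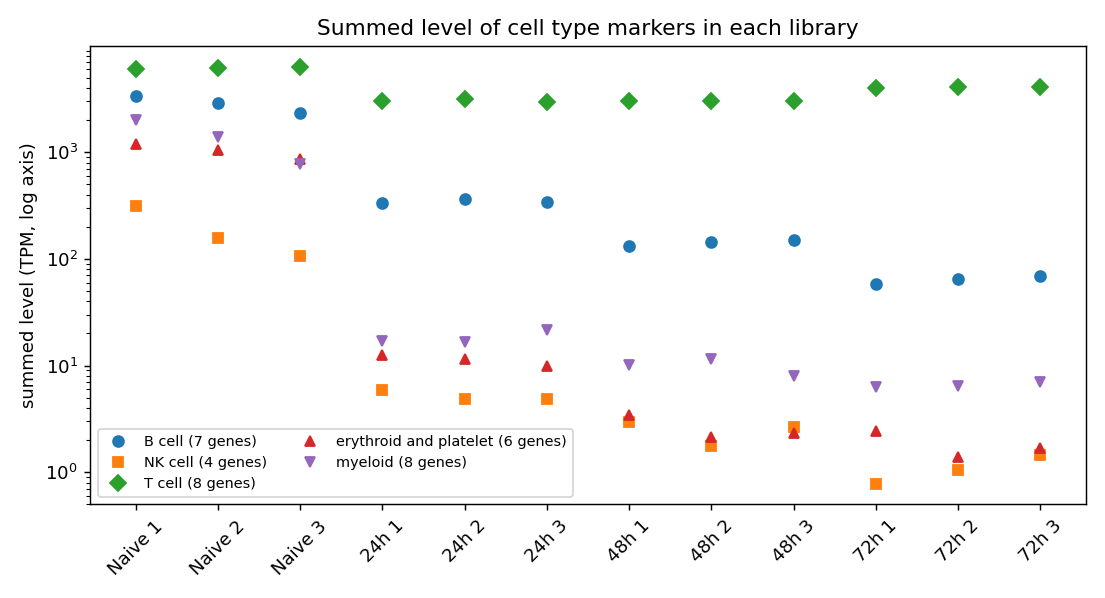
Summed TPM (y axis, log scale) of the markers of 5 cell types in each of the 12 libraries (x axis), 1 symbol per cell type. T cell markers stay between 2992 and 6337 TPM, while myeloid markers lie at or under 21.4 TPM in activated libraries, against 779.6 to 2021 TPM in Naive libraries.

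Against Naive, most of the 10 transcripts were lower after activation, and the ligand gene stayed near its Naive level in TPM. The genes of the coreceptor Tgfbr3 and of Smad2 lay above Naive in all activated libraries. For Smad2 the change was less than 2-fold and, at 72h, turned negative with median-of-ratios or quantile scaling. At 24h vs Naive, 6 of the 10 members fell (Tgfbr2, Smad3, Smad4, Smad7, Ski and Skil), where 21.0% of the 12630 genes tested were called lower, and 1 rose (Tgfbr3), where 25.7% were called higher. At 48h vs Naive, 6 fell (Tgfbr1, Tgfbr2, Smad3, Smad7, Ski and Skil), beside 20.7% of all genes, and by limma none rose, beside 24.7%. Limma voom on recovered reads called 0 higher there too. In the main limma fit 9 of the 10 had an unadjusted p under 0.05 in either direction, beside 10561 of the 12630 genes tested. At 72h vs Naive, 4 fell (Tgfbr2, Smad3, Smad7 and Skil), beside 19.0% of all genes, and 1 rose (Tgfbr3), beside 24.5%. For 24h, 48h and 72h in turn, the members had median log2 fold changes of −1.11, −1.10 and −0.94, and all genes tested had medians of 0.15, 0.15 and 0.21. With median-of-ratios scaling the median of all genes became −0.10, −0.07 and −0.06. These 3 comparisons share the Naive libraries.

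**Figure D2:**
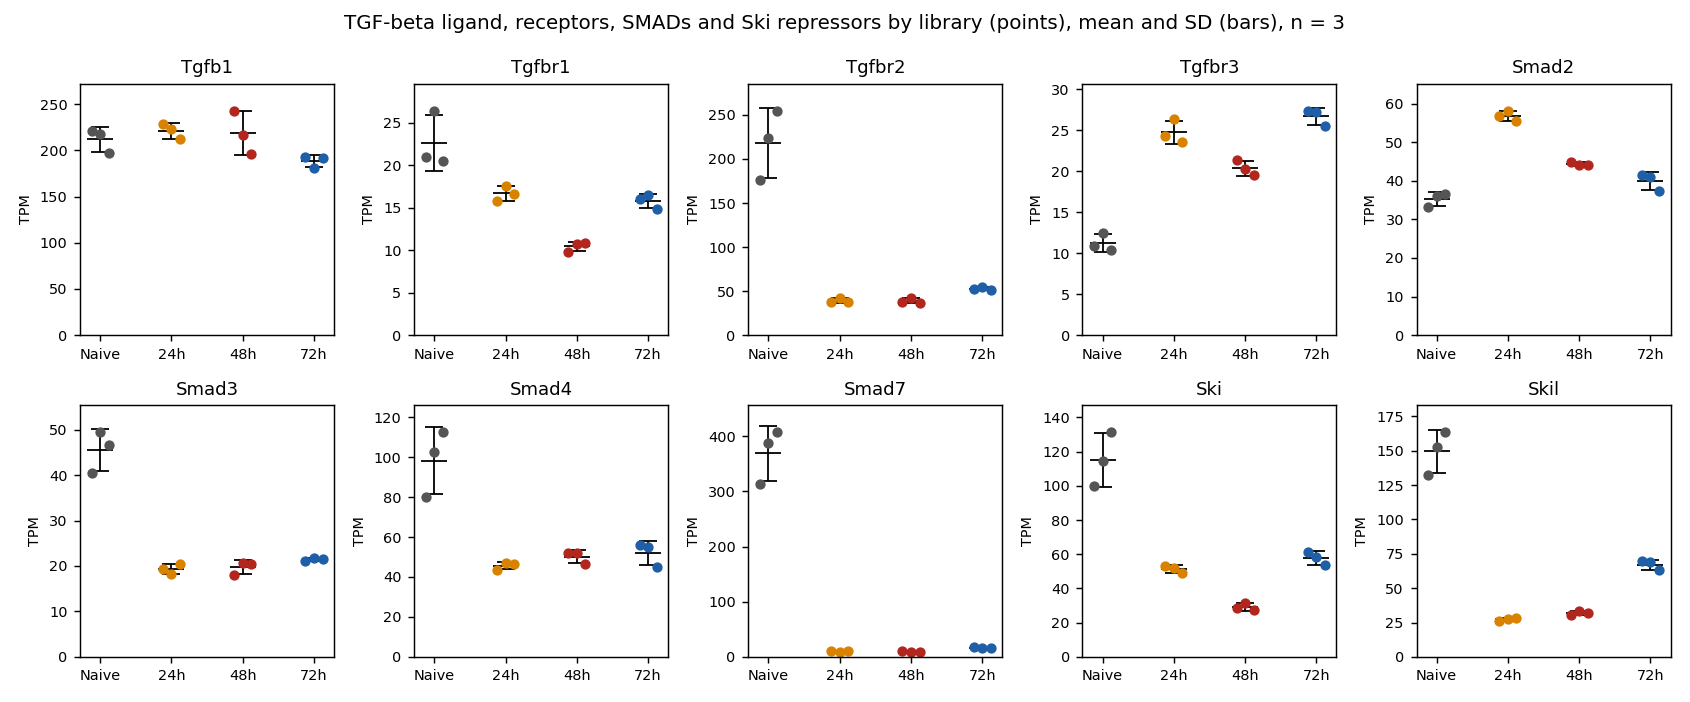
TPM of each member (y axis, from 0) in Naive, 24h, 48h and 72h libraries (x axis), with 1 point per library and bars for mean and SD of 3. Smad7 lies between 8.74 and 18.1 TPM in activated libraries, against 313 to 407 TPM in Naive, while Tgfb1 stays between 180.5 and 243 TPM in all 12 libraries.

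Promoter letters are shown for a pair of members that fell, Tgfbr2 and Ski, and for Tgfb1, the member with the most even TPM level. The starts of genes with different courses can then be set side by side. RefSeq promoters (build GRCm38.p6) were searched for 5 of the 10 members. Tgfbr3 and Skil had no entry, and the promoters of Smad2, Smad4 and Smad7 were not searched. The 250 bases before the annotated start are given 5′ to 3′ along the gene's strand. Capitals mark matches on either strand to CAGAC, the core of SMAD-binding sites, and to GGGCGG, a GC box. The windows are chr9:116175364-116175613 on the minus strand for Tgfbr2, chr4:155222536-155222785 on the minus strand for Ski and chr7:25686752-25687001 on the plus strand for Tgfb1.
Tgfbr2: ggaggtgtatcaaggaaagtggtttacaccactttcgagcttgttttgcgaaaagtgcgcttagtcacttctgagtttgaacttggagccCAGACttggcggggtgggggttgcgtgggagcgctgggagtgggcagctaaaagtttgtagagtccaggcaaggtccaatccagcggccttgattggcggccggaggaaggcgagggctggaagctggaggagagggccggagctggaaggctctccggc
Ski: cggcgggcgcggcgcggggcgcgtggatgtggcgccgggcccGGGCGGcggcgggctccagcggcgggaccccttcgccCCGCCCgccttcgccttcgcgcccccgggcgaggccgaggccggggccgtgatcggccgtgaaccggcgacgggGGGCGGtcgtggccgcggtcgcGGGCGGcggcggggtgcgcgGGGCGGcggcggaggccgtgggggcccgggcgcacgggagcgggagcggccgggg
Tgfb1: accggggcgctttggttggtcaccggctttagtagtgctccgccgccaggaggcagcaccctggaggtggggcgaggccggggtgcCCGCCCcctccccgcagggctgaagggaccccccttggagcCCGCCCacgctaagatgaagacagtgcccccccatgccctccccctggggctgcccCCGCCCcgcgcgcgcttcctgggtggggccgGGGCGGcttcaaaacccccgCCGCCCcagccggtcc
The Tgfbr2 window held 1 match to CAGAC and none to GGGCGG, and the Ski and Tgfb1 windows each held 5 matches to GGGCGG and none to CAGAC, so no window shown held both. CAGAC occurs in 42.2% and GGGCGG in 32.7% of 32851 promoter windows of this length. Neither GTAAACA, a FOXO site found in 3.17% of windows, nor TGANTCA, an AP-1 site found in 6.75%, occurred in the windows of Tgfbr2, Ski, Tgfb1, Smad3 or Tgfbr1. The GC content was 58.4% for Tgfbr2, 87.6% for Ski and 75.2% for Tgfb1.

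In TPM as deposited, the ligand gene had the most even level of the set. Tgfb1 (ENSMUSG00000002603) stood at 221, 218 and 197 TPM in Naive, at 228, 223 and 212 TPM at 24h, at 243, 217 and 196 TPM at 48h and at 193, 180.5 and 192 TPM at 72h. The Naive, 24h and 48h libraries overlapped, and all 72h libraries lay below all others. Its difference from Naive was −0.17 at 72h (SE 0.08, limma adjusted p = 0.0533), which did not pass, and 0.06 at 24h (adjusted p = 0.456), which turned to −0.24 with median-of-ratios scaling and to −0.35 with quantile normalization. Across the alternative settings its 72h difference from Naive ran from −0.49 to −0.14 (limma adjusted p from 2.92e-05 to 0.161), all under the 2-fold minimum. At 72h vs 24h Tgfb1 differed by −0.23 (adjusted p = 0.0183), under the 2-fold minimum. In each activated group Tgfb1 had the highest mean level of the 10 members.

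The receptors changed unequally. Tgfbr2 (ENSMUSG00000032440) stood at 176, 223 and 255 TPM in Naive, at 37.4, 42.5 and 38.0 TPM at 24h, at 38.0, 42.0 and 36.6 TPM at 48h and at 52.0, 54.3 and 51.0 TPM at 72h. No activated library reached the Naive range, and the 24h and 48h libraries overlapped. Tgfbr2 fell, with log2 fold changes of −2.43, −2.45 and −2.02 by time (SE 0.11 each, limma adjusted p = 1.79e-10, 1.93e-10 and 1.39e-09). At 72h vs 48h it differed by 0.42 (adjusted p = 0.00768), under the 2-fold minimum, and no 72h library was as low as a 48h one.

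Tgfbr1 (ENSMUSG00000007613), the type I receptor, stood at 21.0, 26.5 and 20.5 TPM in Naive, at 15.9, 17.6 and 16.6 TPM at 24h, at 9.80, 10.7 and 10.8 TPM at 48h and at 16.1, 16.5 and 14.9 TPM at 72h. The 48h libraries lay below every other library, and the 24h and 72h libraries overlapped. The difference from Naive was −0.41 at 24h (SE 0.10, limma adjusted p = 0.00185), −1.04 at 48h (adjusted p = 4.27e-07) and −0.49 at 72h (adjusted p = 5.4e-04). Of these the 48h value alone passed the 2-fold minimum, and that call was lost with a pseudocount of 5 (−0.83), without Naive replicate 2 (−0.93) and without 48h replicate 1 (−0.998).

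Tgfbr3 (ENSMUSG00000029287) stood at 10.9, 12.4 and 10.3 TPM in Naive, at 24.3, 26.3 and 23.6 TPM at 24h, at 21.3, 20.3 and 19.5 TPM at 48h and at 27.4, 27.2 and 25.5 TPM at 72h. Every activated library lay above every Naive library. The log2 fold change was 1.08 at 24h (SE 0.08, limma adjusted p = 4.36e-08), 0.81 at 48h (adjusted p = 8.48e-07), which did not reach the 2-fold minimum, and 1.18 at 72h (adjusted p = 1.79e-08). The calls at 24h and 72h were lost with median-of-ratios scaling (0.79 and 0.89) and with a pseudocount of 5 (0.88 and 0.97), and the 24h call also with quantile normalization (0.91) and with voom on recovered reads (0.98). The 4 annotated genes that overlap Tgfbr3 in GRCm38 were at 0 TPM in all 12 libraries.

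Within a library, Tgfbr2 over Tgfbr1 was 8.40, 8.44 and 12.4 in Naive, 2.36, 2.41 and 2.28 at 24h, 3.87, 3.93 and 3.37 at 48h and 3.24, 3.29 and 3.43 at 72h. Tgfbr3 over Tgfbr2 averaged 0.0526 ± 0.0109 in Naive, 0.630 ± 0.0162 at 24h, 0.526 ± 0.0400 at 48h and 0.509 ± 0.0149 at 72h (SD, n = 3 each). In both ratios no activated library reached the Naive range. A ratio within a library does not change with library scaling.

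**Figure D3:**
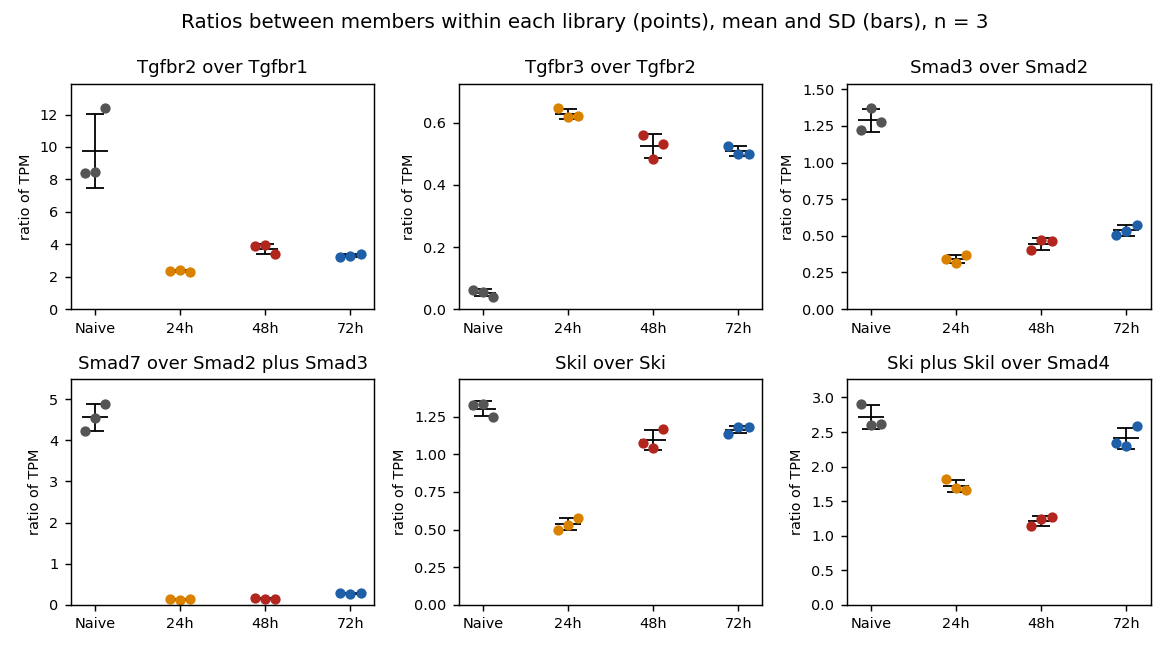
Ratios of TPM between members within each library (y axis, from 0) in Naive, 24h, 48h and 72h (x axis), with points for libraries and bars for mean and SD of 3. Smad7 over the sum of Smad2 and Smad3 lies between 0.114 and 0.289 in activated libraries, against 4.24 to 4.90 in Naive.

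The receptor-regulated SMADs parted. Smad2 (ENSMUSG00000024563) stood at 33.2, 36.0 and 36.6 TPM in Naive, at 56.8, 58.2 and 55.6 TPM at 24h, at 44.9, 44.0 and 44.1 TPM at 48h and at 41.6, 41.0 and 37.3 TPM at 72h. All activated libraries lay above all Naive libraries, the 24h libraries highest and the 72h libraries nearest to Naive. The differences from Naive were 0.68, 0.32 and 0.18 at 24h, 48h and 72h (SE 0.06, limma adjusted p = 3.46e-07, 3.66e-04 and 0.0213), all under the 2-fold minimum, and the 72h value turned to −0.13 with median-of-ratios scaling and to −0.14 with quantile normalization.

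Smad3 (ENSMUSG00000032402) stood at 40.5, 49.4 and 46.6 TPM in Naive, at 19.3, 18.1 and 20.5 TPM at 24h, at 17.96, 20.7 and 20.5 TPM at 48h and at 21.0, 21.8 and 21.4 TPM at 72h. Every activated library lay below every Naive library. Smad3 fell, with log2 fold changes of −1.19, −1.17 and −1.05 by time (SE 0.09, limma adjusted p = 2.53e-08, 3.42e-08 and 1.06e-07), and no step between activated groups passed (adjusted p = 0.809 for 48h vs 24h, 0.318 for 72h vs 48h and 0.172 for 72h vs 24h). The 72h call was lost with a pseudocount of 5 (−0.93) and without Naive replicate 2 (−0.99).

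Smad3 over Smad2 was 1.22, 1.37 and 1.28 in Naive, 0.339, 0.312 and 0.369 at 24h, 0.400, 0.470 and 0.465 at 48h and 0.505, 0.531 and 0.575 at 72h. Smad3 had the lower level of the pair in every activated library and the higher level in every Naive library. The summed level of both was 80.8 ± 6.16 TPM in Naive, 76.1 ± 0.191 TPM at 24h, 64.1 ± 1.08 TPM at 48h and 61.4 ± 2.32 TPM at 72h (SD, n = 3 each), and the Naive and 24h libraries overlapped in it.

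Smad4 (ENSMUSG00000024515), the shared partner of the other SMADs, stood at 79.9, 103 and 112 TPM in Naive, at 43.6, 47.2 and 46.4 TPM at 24h, at 51.9, 52.2 and 46.5 TPM at 48h and at 56.0, 55.1 and 45.1 TPM at 72h. The activated groups overlapped one another and lay below all Naive libraries. The log2 fold changes were −1.07, −0.94 and −0.90 at 24h, 48h and 72h (SE 0.12, limma adjusted p = 1.36e-06, 5.02e-06 and 8.54e-06). The first alone passed the 2-fold minimum, and without Naive replicate 3 it did not (−0.97). The 48h and 72h values passed it with median-of-ratios scaling (−1.20 and −1.21), quantile normalization (−1.24 at both), voom on recovered reads (−1.09 and −1.06) and without Naive replicate 1 (−1.08 and −1.04). An annotated gene on the opposite strand overlaps Smad4 in GRCm38, and the sources used here do not say whether reads were counted by strand.

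The inhibitory SMAD gene made the largest change of the 10. Smad7 (ENSMUSG00000025880) stood at 313, 387 and 407 TPM in Naive, at 10.2, 8.74 and 10.4 TPM at 24h, at 10.2, 9.25 and 9.66 TPM at 48h and at 18.1, 15.9 and 16.7 TPM at 72h. It had the highest mean level of the members in Naive and the lowest at 24h and 48h. The 24h and 48h libraries overlapped, and the 72h libraries lay above both and below Naive. Smad7 fell, with log2 fold changes of −5.09, −5.10 and −4.36 by time (SE 0.10, limma adjusted p = 1.43e-13, 1.85e-13 and 7.05e-13), to 2.66%, 2.63% and 4.58% of the Naive mean. Behind these values lay 253 to 485 recovered reads in activated libraries and 9146 to 9555 in Naive libraries. At 72h vs 48h Smad7 differed by 0.74 (adjusted p = 9.25e-05), under the 2-fold minimum. Smad7 over the sum of Smad2 and Smad3 averaged 4.56 ± 0.329 in Naive, 0.129 ± 0.0125 at 24h, 0.152 ± 0.00999 at 48h and 0.275 ± 0.0197 at 72h (SD, n = 3 each).

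The repressor genes both fell, with their lowest levels at different times. Skil (ENSMUSG00000027660) stood at 133, 153 and 163 TPM in Naive, at 26.3, 27.7 and 28.3 TPM at 24h, at 30.5, 33.1 and 31.7 TPM at 48h and at 69.8, 68.7 and 63.0 TPM at 72h. No groups overlapped, and the levels ran upward in the order 24h, 48h, 72h and Naive. Skil fell, with log2 fold changes of −2.40, −2.20 and −1.14 by time (SE 0.08, limma adjusted p = 7.24e-12, 1.96e-11 and 1.4e-08). It rose by 1.06 at 72h vs 48h (adjusted p = 5.22e-07), a call lost with a pseudocount of 5 (0.97), and by 1.26 at 72h vs 24h (adjusted p = 4.22e-08).

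Ski (ENSMUSG00000029050) stood at 99.9, 114 and 131 TPM in Naive, at 53.0, 52.0 and 48.8 TPM at 24h, at 28.4, 31.7 and 27.2 TPM at 48h and at 61.5, 58.3 and 53.5 TPM at 72h. The 48h libraries lay below all others, and the 24h and 72h libraries did not overlap. Ski fell by 1.14 at 24h and fell by 1.94 at 48h (SE 0.10, limma adjusted p = 9.86e-08 and 4.57e-10), and its difference from Naive at 72h was −0.98 (adjusted p = 5.4e-07), just under the 2-fold minimum. That 72h value passed it with median-of-ratios scaling (−1.29), quantile normalization (−1.30), voom (−1.14), without Naive replicate 1 (−1.08) and without 72h replicate 1 (−1.02). It differed by −0.80 at 48h vs 24h (adjusted p = 1.96e-05) and by 0.97 at 72h vs 48h (adjusted p = 5.99e-06), both under the 2-fold minimum, which the step to 72h passed without 48h replicate 2 (1.03) or without 72h replicate 3 (1.02).

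Skil over Ski was 1.33, 1.34 and 1.25 in Naive, 0.497, 0.532 and 0.580 at 24h, 1.07, 1.04 and 1.17 at 48h and 1.14, 1.18 and 1.18 at 72h, so Ski had the higher level of the pair in the 24h libraries and Skil in all others. The sum of Ski and Skil over Smad4 averaged 2.71 ± 0.172 in Naive, 1.72 ± 0.0863 at 24h, 1.21 ± 0.0686 at 48h and 2.41 ± 0.153 at 72h (SD, n = 3 each). It was lowest at 48h, and the 72h libraries came nearest to Naive.

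**Figure D4:**
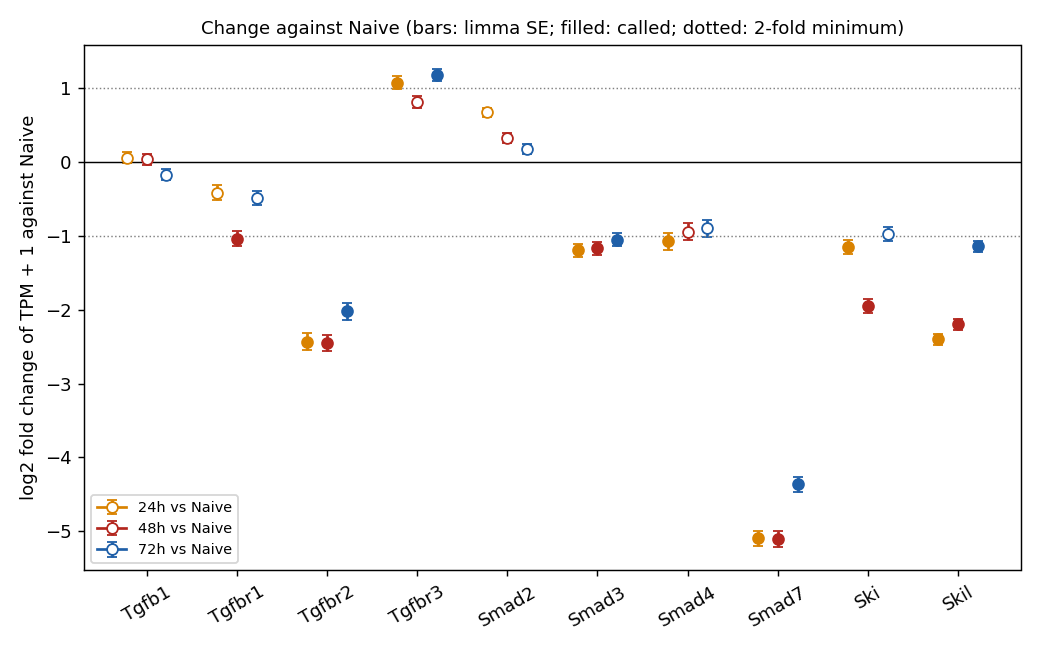
Log2 fold change of TPM + 1 against Naive (y axis) for each member (x axis) at 24h, 48h and 72h, with limma SE bars, filled points for calls and dotted lines at the 2-fold minimum. Smad7 lies at −5.09, −5.10 and −4.36, Tgfbr3 at 1.08, 0.81 and 1.18, and Tgfb1 at 0.06, 0.04 and −0.17.

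Fewer members were called in the steps within activation than against Naive. At 48h vs 24h limma called none of the 10 members, where 8.02% of all genes were called. There 5 of the 10 had an unadjusted p under 0.05, beside 7218 of the 12630 genes tested, and limma voom on recovered reads also called 0. The same 5 members had an adjusted p under 0.05 at any fold (Tgfbr1, Tgfbr3, Smad2 and Ski lower, Skil higher), beside 52.1% of all genes. At 72h vs 48h, the day off the plates, 1 member rose (Skil), where 2.81% of genes were called higher, and none fell by limma, where 3.22% were called lower. Voom also called 0 lower there. In the main limma fit 8 of the 10 had an unadjusted p under 0.05 in either direction, beside 6300 of the 12630 genes tested. All 72h libraries lay above all 48h libraries for 7 of the 10 members (Tgfbr1, Tgfbr2, Tgfbr3, Smad3, Smad7, Ski and Skil), beside 32.5% of all genes, and below them for Tgfb1 and Smad2, beside 26.7%. At 72h vs 24h, again 1 member rose (Skil), where 6.93% of genes were called higher.

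Levels of some members and the marker sums differed among the Naive libraries. Tgfbr2, Smad2, Smad4, Smad7, Ski and Skil were each lowest in Naive replicate 1 and highest in Naive replicate 3. Tgfb1 was highest in replicate 1 and lowest in replicate 3, and Tgfbr1, Tgfbr3 and Smad3 were highest in replicate 2. The T cell marker sum was lowest in replicate 1 and highest in replicate 3, with 6002, 6107 and 6337 TPM in replicates 1, 2 and 3. The myeloid, B cell, NK cell and erythroid and platelet marker sums had the opposite order, each highest in replicate 1 and lowest in replicate 3. The CD4 and regulatory T cell sum (22.4, 31.2 and 25.6 TPM) and the stromal and endothelial sum (77.4, 82.1 and 82.3 TPM) were lowest in replicate 1. The part of these differences in the members' changes was not tested.

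Other genes of the pathway were counted from 8 lists, and their counts are to be read beside the shares of all genes called against Naive, which were 25.7% higher and 21.0% lower at 24h, 24.7% and 20.7% at 48h and 24.5% and 19.0% at 72h. Among 19 genes of ligand release and storage, the member Tgfb1 included, 12 were tested, and 3 rose and 6 fell at 24h vs Naive, 4 rose and 5 fell at 48h and 3 rose and 3 fell at 72h. Lrrc32, which encodes GARP, the surface anchor of latent TGF-beta, averaged 5.72 ± 0.445 TPM in the 24h group, 13.4 ± 1.74 in the 48h group and 10.8 ± 1.04 in the 72h group, against 0.892 ± 0.282 in Naive (SD, n = 3 each), and rose by 1.84, 2.94 and 2.65 (limma adjusted p = 2.84e-08, 2.56e-10 and 7.84e-10). Thbs1, whose platelet-rich product activates latent ligand, the integrin chain gene Itgb5 and the protease gene Mmp9 fell at all 3 times, with log2 fold changes at 24h of −3.52, −4.58 and −2.79, beside the falls of the myeloid and platelet markers.

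Of 12 other receptors of the family, 9 were tested, and none rose and 3 fell at 24h, 1 rose and none fell at 48h and 1 rose and 2 fell at 72h. The 48h count of 1 called became 4 with median-of-ratios scaling or quantile normalization and 5 with voom, and Acvr1b, Eng and Acvrl1 lay just under the 2-fold minimum there (−0.91, −0.91 and −0.90). Bmpr1a, a type I receptor for bone morphogenetic proteins, averaged 1.01 ± 0.489 TPM in the 24h group, 6.48 ± 0.357 in the 48h group and 4.77 ± 0.655 in the 72h group, against 0.459 ± 0.131 in Naive (SD, n = 3 each), and rose by 2.36 at 48h and 1.98 at 72h (limma adjusted p = 2.75e-08 and 1.76e-07). Acvr1b, a type I activin receptor, fell by 1.01 at 24h and fell by 2.22 at 72h. Acvrl1, the type I receptor ALK1, fell by 2.83 at 24h and fell by 1.75 at 72h, and Eng, its coreceptor endoglin, fell by 1.08 at 24h. Of 4 other SMADs, 2 were tested, and Smad5, of the bone morphogenetic protein branch, fell, with log2 fold changes of −1.40, −1.75 and −1.67 by time.

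Among 23 SMAD ubiquitin ligases and receptor regulators, 22 were tested, and 6 rose and 6 fell at 24h, 3 rose and 3 fell at 48h and 3 rose and 4 fell at 72h. The 24h counts are 27.3% of those tested in each direction, near the shares over all genes. Ldlrad4, which keeps SMAD2 and SMAD3 from the receptor, averaged 1.71 ± 0.664 TPM in the 24h group, 0.285 ± 0.0906 in the 48h group and 2.87 ± 0.211 in the 72h group, against 43.4 ± 9.02 in Naive (SD, n = 3 each), and fell (log2 fold changes −4.04, −5.09 and −3.50). Ppp1r15a, a regulatory subunit of protein phosphatase 1, fell (log2 fold changes −3.53, −2.74 and −4.57). Fkbp1a, which binds the resting type I receptor, rose by 2.19, 1.98 and 1.61, and the nuclear export gene Xpo4 by 2.14, 1.79 and 1.56.

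Of 25 SMAD partners and corepressors, 22 were tested, and 5 rose and 5 fell at 24h and at 48h, and 2 rose and 5 fell at 72h. Both TGIF genes, which encode homeodomain corepressors of SMADs, fell at the 3 times, with log2 fold changes of −2.02, −2.37 and −2.39 for Tgif1 and −1.11, −1.94 and −2.14 for Tgif2. Runx1 fell (log2 fold changes −1.13, −2.08 and −1.96), and Fosl1, an AP-1 family member, rose by 2.24 at 24h and 2.04 at 48h. The TAK1 branch is a kinase arm that does not use SMADs, and its list here also held Rhoa and Rock1. Of the 13 genes in that list, 2 rose and 1 fell at 24h, 1 rose and 1 fell at 48h, and 2 rose and 1 fell at 72h. Map3k7, which encodes TAK1 itself, was at 85.1 ± 4.39 TPM at 72h, against 31.0 ± 3.32 in Naive (SD, n = 3 each), and rose by 1.43 (limma adjusted p = 9.81e-10). Map2k3 rose by 1.71, 1.38 and 1.03, Mapk14 fell by 1.26 at 48h and Mapk8 fell by 1.25 at 72h.

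**Figure D5:**
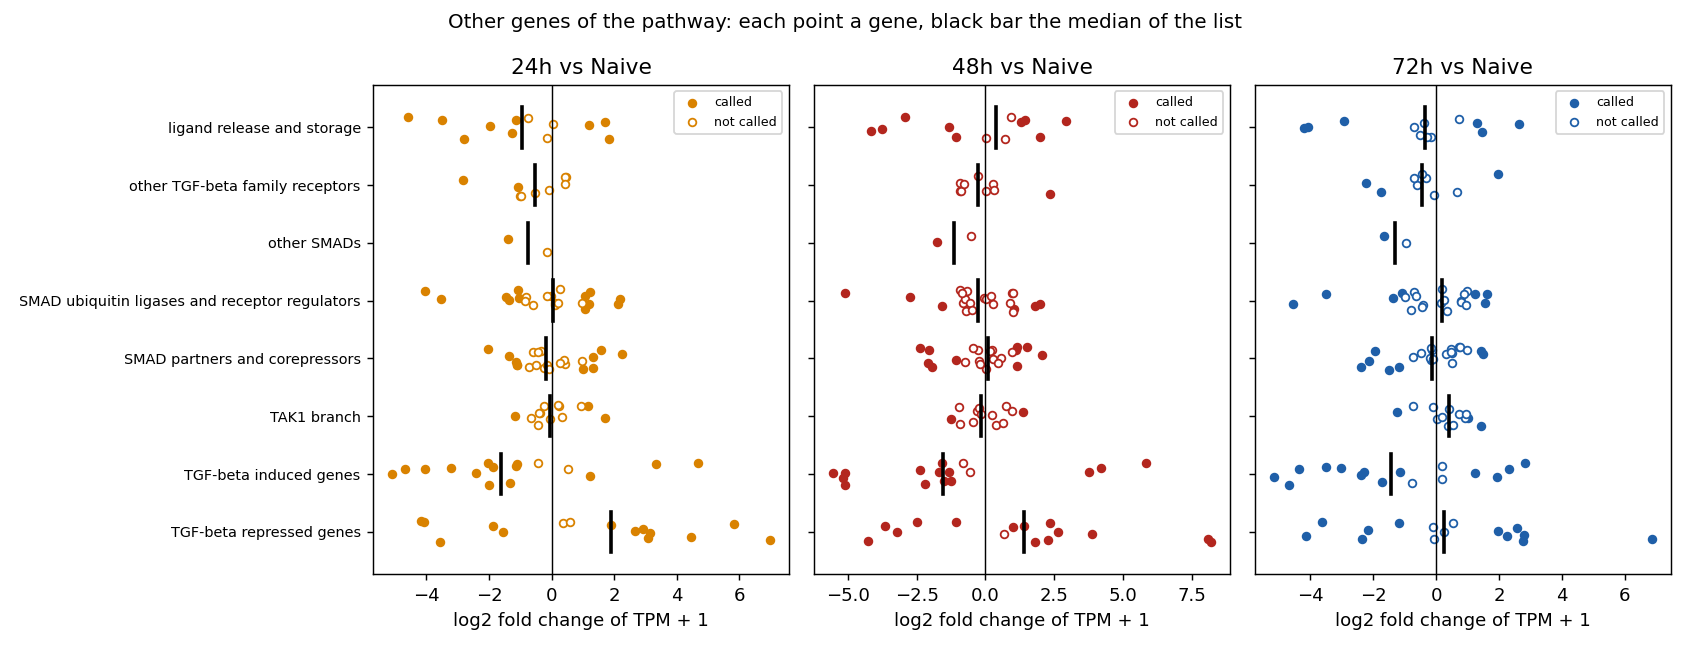
Log2 fold change of TPM + 1 against Naive (x axis) of each tested gene in 8 pathway lists (y axis) at 24h, 48h and 72h, filled where called, with a black bar at the list's median. The TGF-beta induced genes have medians of −1.60 at 24h, −1.54 at 48h and −1.43 at 72h.

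Target genes were counted on both sides. Of 18 genes known to be induced by TGF-beta, 16 were tested, and 3 rose and 11 fell at 24h, 3 rose and 11 fell at 48h and 4 rose and 9 fell at 72h, with medians of −1.60, −1.54 and −1.43. The list holds the members Smad7 and Skil and shares Tgif1, Ldlrad4 and Pmepa1 with other lists, and many of its genes also answer to other signals. Itgae, the CD103 gene, had 6.83, 8.01 and 4.38 TPM in 24h libraries, 0.406, 0.486 and 0.477 in 48h libraries and 2.47, 1.45 and 1.14 in 72h libraries, against 59.6, 66.4 and 72.8 TPM in Naive. The 48h libraries lay below all others, and no activated library reached the Naive range. Itgae fell (log2 fold changes −3.21, −5.53 and −4.67, limma adjusted p = 4.19e-09, 2.07e-11 and 1.1e-10). Tgfbi, a matrix protein gene that macrophages also express, was listed at 0 in all 48h and 72h libraries and averaged 37.2 ± 15.7 TPM in Naive, beside the myeloid markers.

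Of 15 genes known to be repressed by TGF-beta, all were tested, and 8 rose and 5 fell at 24h, 9 rose and 5 fell at 48h and 6 rose and 5 fell at 72h. The interferon gene Ifng averaged 1250 ± 183 TPM in the 24h group, 5871 ± 186 in the 48h group and 24.7 ± 3.79 in the 72h group, against 21.7 ± 7.74 in Naive (SD, n = 3 each). Ifng rose by 5.84 at 24h and 8.08 at 48h vs Naive (limma adjusted p = 1.88e-11 and 1.37e-12), fell by 7.84 at 72h vs 48h (adjusted p = 7.91e-11) and at 72h differed from Naive by 0.24 (adjusted p = 0.306). The interleukin gene Il2 rose by 4.47 and 3.87 at 24h and 48h vs Naive and fell by 3.94 at 72h vs 48h. Gzmb, a cytotoxic protease gene, fell by 1.32 at 72h vs 48h and was 6.86 above Naive at 72h. Klrg1, a receptor of effector cells and NK cells, fell against Naive (log2 fold changes −4.09, −4.26 and −4.13), beside the NK cell markers.

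As a description, each member's course over the 12 libraries was set beside those of 10480 other genes by the Pearson correlation of log2(TPM + 1), in which group differences shared by many genes weigh most. Tgfbr2 ran closest to Jak1 (r = 0.997) and Smarca2 (0.997), and Smad7 to Tcp11l2 (0.998) and Lef1 (0.998). Skil ran closest to Ptpre and Slc28a2 (0.994 each), Ski to Sorl1 (0.994) and Pcif1 (0.990), Tgfbr1 to Wdfy4 (0.983) and Sppl3 (0.971), and Smad4 to Atg13 (0.988) and Impact (0.984). Smad3 ran closest to 2310015A10Rik (0.997) and Oas2 (0.993), Smad2 to Gm17322 (0.989) and Git1 (0.988), and Tgfbr3 to Ints9 (0.993) and Focad (0.992). Tgfb1 had the weakest match, to Sec14l1 (0.920) and Tmem161a (0.896).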

How the data were processed

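Per the file headers, the authors deposited 1 table of TPM values for 12 libraries, normalized for transcript length and library total. Per the submitters' processing notes, FastQC 0.11.9, cutadapt 2.9, STAR 2.7.7a, edgeR 3.36.0 and the build GRCm39 were used, in roles the notes do not give. Groups were taken from the sample titles, with 3 libraries in each of 4 groups. The filter on low values kept 12630 of 48709 rows, those reaching 1 TPM in 3 or more libraries. The tool limma 3.58.1 (R 4.3.3) fitted 4 group means to log2(TPM + 1) with an intensity trend, giving 6 comparisons, each adjusted by the Benjamini-Hochberg method across every gene kept. A call needed an adjusted p under 0.05 and a change of at least 2-fold. TPM steps gave whole reads for 100.0% of the 19181 genes above 0 in any library (tolerance 0.001 reads), as the smallest whole multiples that fit. A gene above 0 in a single library always fits, and a shared divisor makes a gene's reads too low. The totals of 14312854 to 19495722 reads per library are therefore lower bounds. Voom was run on those reads as an alternative chosen after seeing the data. The fit was tested on simulated data with the same spread in all groups and no shift in cell types. That test does not cover the less alike Naive replicates or their other cells. Other alternatives were the pseudocount, the filter, median-of-ratios and quantile scaling, a replicate block, a fit on the compared groups alone, no intensity trend, no fold minimum and leaving out each library. Genes named from a list were the up to 4 called genes of largest change against Naive with a group mean of at least 5 TPM, plus Itgae, and for each member the 2 genes most like it. Promoters came from RefSeq on GRCm38.p6, and no coordinates are given on the authors' build. The members and lists were chosen with earlier results of these data known. A gene of the TGF-beta induced list that the rule names is counted in the list and not reported here by name.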

Additional observations from a re-analysis of the deposited data

How the results depend on the processing

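Of 1380 fold changes of members under the alternatives, 1297 kept their direction and their side of the threshold, and of the 20 called member results 6 lost the call in at least 1 alternative and none changed direction. Calls were gained in 39 cases, 24 of them with no fold minimum and 15 in other alternatives, which were of 4 results (Smad4 at 48h and 72h and Ski at 72h, each vs Naive, and Ski at 72h vs 48h). The number of members called at 72h vs Naive became 3 with a pseudocount of 5 and 9 with no fold minimum. At 72h vs 48h it became 0 with a pseudocount of 5, 7 with no fold minimum and 1 to 2 when single libraries were left out, with 2 called without 48h replicate 2 or without 72h replicate 3. With no fold minimum it became 5 both at 48h vs 24h and at 72h vs 24h. Dropping the minimum also raised the share of all genes called at 48h vs 24h, from 8.02% to 52.1%. All counts with no fold minimum, of members and of list genes, are to be read beside such a rise. Signs turned in 8 results, none of them called. Against Naive, median-of-ratios scaling gave Tgfb1 −0.24 at 24h and −0.22 at 48h, quantile normalization −0.35 and −0.28, and voom −0.10 and −0.10, and leaving out single libraries gave its 48h value a range of −0.039 to 0.117. Smad2 at 72h vs Naive was −0.13 by median of ratios and −0.14 by quantiles. At 48h vs 24h, Tgfb1 was 0.0237 by median of ratios, 0.0712 by quantiles and 0.00904 by voom (−0.101 to 0.0549 without single libraries), Tgfbr2 was 0.0286, 0.0389 and 0.0151 (−0.072 to 0.0404), Smad7 was 0.0305 by median of ratios and 0.0213 by voom (−0.0834 to 0.0331), and Smad3 ran −0.0117 to 0.0923 without single libraries. Smad4 at 72h vs 48h was −0.00849 by median of ratios and −0.00691 by quantiles (−0.00834 to 0.146 without single libraries). Counts in the pathway lists moved by over 1.5 times in 80 of 1104 cases. At 48h vs Naive the other receptors called numbered 1, and became 3 with a pseudocount of 0.1, 4 by median of ratios or quantiles, 5 by voom, 6 with no fold minimum and up to 2 without single libraries. The TAK1 branch genes called numbered 2, and became 5 with a pseudocount of 0.1, 4 by median of ratios or voom, 13 with no fold minimum and up to 4 without single libraries. The cause of these changes was not tested. No pairing by replicate number was detected, as none of 18 same-numbered pairs had deviations correlated above 0.1 (−0.052 to 0.089). A low correlation cannot show that the libraries were unpaired. With the replicate block the members called numbered 7, 6 and 5 against Naive, with 0 of 60 member calls changed. The labels do not say that replicates came from separate animals, so p-values measure the spread between these libraries.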

Other observations

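Of the listed pathway genes that reversed their course within activation, 2 more are described here, picked after their values were seen. Others did so too, among them Furin, with log2 fold changes of 1.70 at 48h vs 24h and −1.44 at 72h vs 48h. Ldlrad4 had −1.05 and 1.59 in the same steps. Tgfb3, a second TGF-beta ligand gene, averaged 0.398 ± 0.0288 TPM in the 24h group and 7.18 ± 0.446 in the 48h group, against 2.38 ± 0.602 in Naive (SD, n = 3 each). By limma it fell by 1.26 at 24h (adjusted p = 1.92e-06) and rose by 1.29 at 48h (adjusted p = 1.51e-06) against Naive, and at 72h the difference was −0.29 (adjusted p = 0.0758). The 24h mean of Tgfb3 lay under the 1 TPM used by the filter, so the size of its fall depends on the pseudocount. The part of other cells in its Naive level was not tested. Pmepa1, which encodes a membrane protein that holds back receptor-regulated SMADs, averaged 34.9 ± 0.556 TPM in the 24h group, 9.501 ± 0.643 in the 48h group and 34.97 ± 1.84 in the 72h group, against 14.4 ± 2.36 in Naive (SD, n = 3 each). It rose by 1.23 at 24h vs Naive (limma adjusted p = 8.61e-08), fell by 1.77 at 48h vs 24h (4.74e-08) and rose by 1.78 at 72h vs 48h (5.98e-08).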
